A study of Mus musculus with 6 samples.

Results

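The alpha and beta tubulin isotypes counted in mouse gastrocnemius (Gas) muscle were compared between wild-type (WT) mice and mice that lack the microRNA miR-92b (M92KO). Members were the rows of the count table with 1 of 10 gene symbols, 5 alpha tubulins (Tuba1a, Tuba1b, Tuba1c, Tuba4a and Tuba8) and 5 beta tubulins (Tubb2a, Tubb2b, Tubb4b, Tubb5 and Tubb6), out of 34714 symbols in the table. All 10 were found, and all 10 passed the filter on low counts that left 15788 genes for testing. The 3 WT libraries came from C57BL/6 mice and the 3 M92KO libraries from a purchased line on the C57BL/6JGpt background. That line carries a germline deletion of Mir92b in every tissue, so the genotype is not limited to muscle. All 6 mice were 8 weeks old and untreated, and each library is 1 mouse of 1 genotype. The genotype labels were not checked against the deleted gene, since Mir92b was not analysed here. The isotypes were chosen from a contrast whose result was already known, and their differences between genotypes are therefore given as a description with no test.

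Microtubules are hollow polymers of dimers, each made of 1 alpha and 1 beta tubulin. Mammals encode several isotypes of each, which copolymerize and differ mostly in their acidic tails, where enzymes add or remove tyrosine, glutamate and glycine and where motors and other microtubule-binding proteins dock. In muscle fibres, microtubules form a lattice beneath the membrane and around the nuclei that positions nuclei and organelles and carries motor traffic. Cells also sense the amount of free tubulin dimer and degrade tubulin messenger RNA when there is too much of it, through a pathway that reads the first residues of the nascent chain.

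The 2 mature forms of the deleted microRNA are shown because the 3′-UTRs of the isotypes were searched for matches to the seeds of these forms. The sequences are those of RefSeq (build GRCm38.p6, minus strand, chr3:89227126-89227147 for miR-92b-3p and chr3:89227165-89227188 for miR-92b-5p), and capitals mark the seed, bases 2 to 8.
miR-92b-3p: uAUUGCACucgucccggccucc
miR-92b-5p: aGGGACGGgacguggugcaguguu
Matches that include bases 2 to 7 of either form were sought in the main transcript of each gene, and 6-base matches to other seed bases were not. The matches sought were found in the annotated 3′-UTR of 0 of the 10 tubulins. These 3′-UTRs were between 101 bases (Tuba1c) and 1394 bases (Tuba4a) long, and 6 of them were under 400 bases, against a median of 871 bases over 19800 genes. Of those 19800 genes, 12.1% held a match of at least 7 bases to the miR-92b-3p seed and 4.04% to the miR-92b-5p seed. The absence of these letters says nothing of other modes of pairing or of sites outside these 3′-UTRs, and direct repression was not tested.

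The libraries summed to between 33160508 and 48209846 counts, with all 3 M92KO totals below the lowest WT total. Levels are therefore given in CPM (counts scaled to a common library total) on library sizes normalized with edgeR's TMM method. The tubulins are well covered: the lowest count of any of them in any library was 138 (Tubb2b), with a counting error of 8.51%, and the highest was 22117 (Tuba4a), with a counting error of 0.672%. Counting errors cover sampling of reads only. M92KO replicate 1 stood apart from the other M92KO libraries, with a chi-square per gene of 58.3 and 58.0 against them, compared with 11.1 between those 2 libraries and 12.8 to 29.0 among WT libraries. Results that rest on this library are therefore also given without it. The tissue label was checked against 12 muscle fibre genes, which were all detected in every library and together took between 124947 and 133062 CPM.

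In WT muscle, 3 isotypes made up most of the tubulin message. To compare genes, CPM were divided by the length of the main transcript in kb. Tuba4a, an alpha tubulin whose gene does not encode the final tyrosine that most other alpha isotypes carry, was the most abundant, at 162 ± 7.56 CPM per kb (SD, n = 3). Tubb4b, a broadly expressed beta tubulin, followed at 104 ± 1.69 CPM per kb. Tuba8, an alpha tubulin known for its expression in muscle and testis, came next at 72.2 ± 2.33 CPM per kb. Per kb of transcript, the WT ranges of these neighbours in the order did not overlap.

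The other 7 isotypes lay well below. Tuba1a (32 ± 0.879 CPM per kb) and Tuba1b (30.2 ± 2.04 CPM per kb), which encode the alpha chains of most dividing and developing cells, overlapped in range in WT. So did Tubb5 (18.7 ± 0.719 CPM per kb) and Tubb2a (17.5 ± 2.93 CPM per kb). Tubb6 reached 12.8 ± 1.42 CPM per kb, Tuba1c 7.74 ± 0.518 CPM per kb and Tubb2b 3.27 ± 0.247 CPM per kb. The order of the WT means was the same per kb of coding sequence, but on that scale Tubb4b (124) and Tuba8 (121) were close. In M92KO muscle the order per kb of transcript differed at 1 place, where Tubb2a (12.3 ± 1.64 CPM per kb) lay below Tubb6 (14.3 ± 2.20 CPM per kb). Per kb of coding sequence, Tubb5 (42.2) also lay above Tuba1a (38.6) and Tuba1b (34.5) in M92KO.

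**Figure D1:**
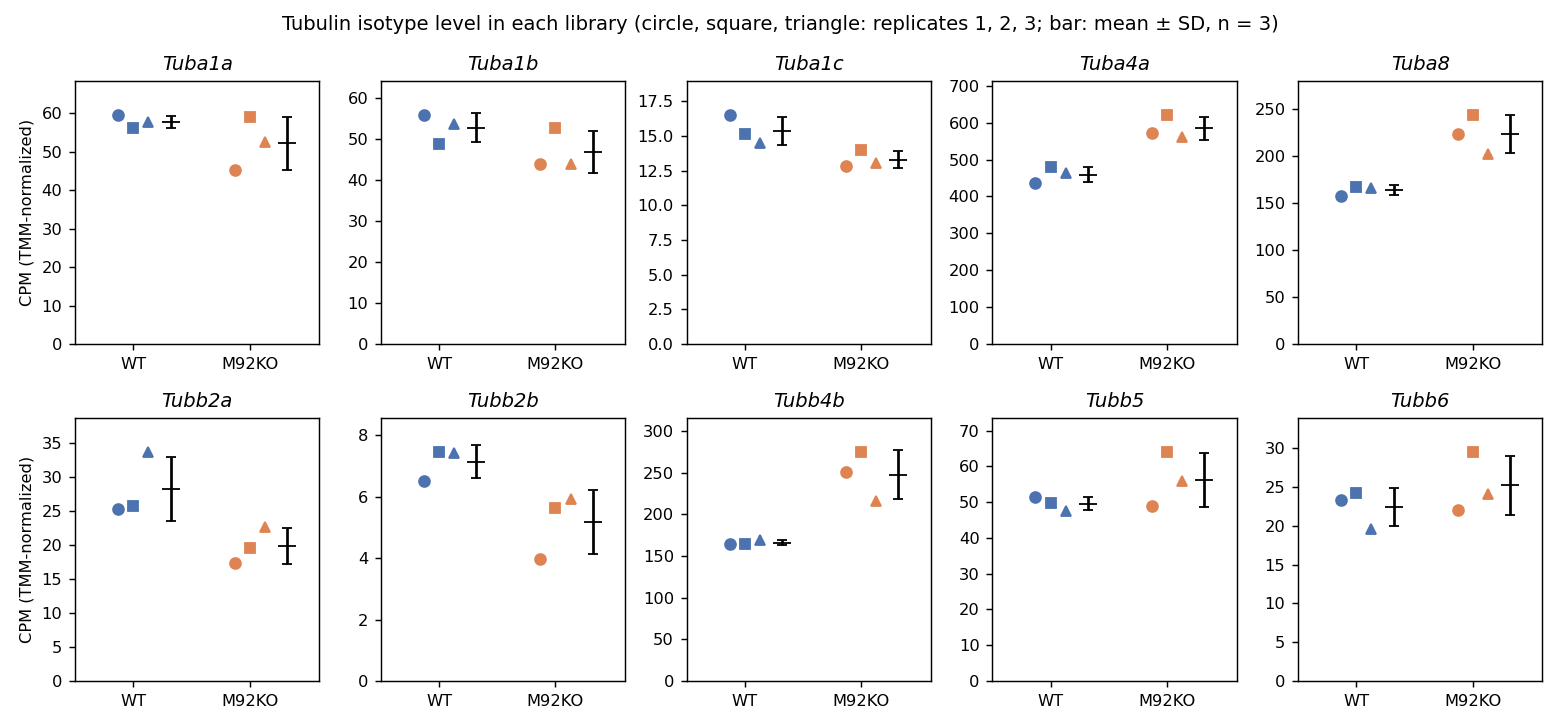
Level of each of the 10 tubulin isotypes in each library, in TMM-normalized CPM on axes that start at 0. Symbols are the 3 replicates of WT (blue) and M92KO (orange) and bars are mean ± SD. Tubb4b, Tuba8 and Tuba4a lie higher in every M92KO library than in any WT library, Tubb2a, Tubb2b and Tuba1c lie lower, and the other 4 overlap.

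The 3 most abundant isotypes were all higher in M92KO muscle. Tubb4b had 165, 164 and 169 CPM in the WT libraries and 251, 275 and 217 CPM in the M92KO libraries. Every M92KO library lay above every WT library, and the M92KO libraries spread more (SD 29.3 CPM) than the WT libraries (SD 2.70 CPM). The log2 fold change was 0.58 ± 0.091 (SE), or 49.1% more. Tuba8 had 157, 167 and 166 CPM in WT and 223, 243 and 202 CPM in M92KO. These groups did not overlap either, and the log2 fold change was 0.45 ± 0.081, or 36.3% more. Tuba4a had 436, 478 and 463 CPM in WT and 572, 619.6 and 561 CPM in M92KO. Again all M92KO libraries were above all WT libraries, with a log2 fold change of 0.35 ± 0.074, or 27.2% more. Before scaling, the counts of all 3 overlapped between genotypes. They were 6345 to 8073 in WT and 7866 to 9002 in M92KO for Tubb4b, and 6463 to 7902 and 7341 to 7951 for Tuba8. For Tuba4a they were 18480 to 22117 in WT and 19865 to 20368 in M92KO. The differences are thus ones of each isotype's share of smaller libraries. With M92KO replicate 1 left out, the log2 fold changes were 0.57 for Tubb4b, 0.44 for Tuba8 and 0.36 for Tuba4a.

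Of the beta tubulins, Tubb2a and Tubb2b were lower in M92KO muscle. These close paralogs are best known from neurons and lie side by side in the genome. Tubb2a had 25.2, 25.7 and 33.6 CPM in WT and 17.4, 19.5 and 22.6 CPM in M92KO. The groups did not overlap, WT replicate 3 was the highest, and the log2 fold change was -0.51 ± 0.138 (a fold of 0.704). Tubb2b, the lowest of the 10 isotypes, had 6.52, 7.46 and 7.44 CPM in WT and 3.97, 5.62 and 5.92 CPM in M92KO. The lowest value was that of M92KO replicate 1, all M92KO values were below all WT values, and the log2 fold change was -0.46 ± 0.164. Leaving out M92KO replicate 1 gave log2 fold changes of -0.42 for Tubb2a and -0.31 for Tubb2b. The ratio of Tubb2a to Tubb2b counts was 3.94 ± 0.539 in WT and 3.89 ± 0.452 in M92KO (SD, n = 3).

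Of the alpha tubulins, Tuba1c was lower without overlap, by a smaller amount. It had 16.5, 15.1 and 14.5 CPM in WT and 12.8, 14.0 and 13 CPM in M92KO. The nearest libraries of the 2 groups, WT replicate 3 and M92KO replicate 2, differed by less than either group's SD (1.03 CPM in WT and 0.597 CPM in M92KO). The log2 fold change was -0.21 ± 0.090, and -0.19 without M92KO replicate 1.

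The remaining 4 isotypes overlapped between genotypes. Tuba1a had 59.4, 56.2 and 57.6 CPM in WT and 45.2, 58.9 and 52.5 CPM in M92KO, with M92KO replicate 1 the lowest and M92KO replicate 2 inside the WT range. Its log2 fold change of -0.15 ± 0.097 became -0.05 ± 0.067 without M92KO replicate 1 and -0.24 without M92KO replicate 2. Tuba1b had 55.7, 48.7 and 53.6 CPM in WT and 43.7, 52.5 and 43.8 CPM in M92KO, a log2 fold change of -0.17 ± 0.093, or -0.27 without M92KO replicate 2. Here 2 M92KO libraries were below all WT libraries and M92KO replicate 2 was among them. Tubb5, the beta chain of most dividing cells, had 51.5, 49.7 and 47.6 CPM in WT and 49.0, 64.0 and 55.9 CPM in M92KO. Its log2 fold change of 0.18 ± 0.099 became 0.27 ± 0.073 without M92KO replicate 1, the only M92KO library inside the WT range, and 0.08 without M92KO replicate 2, the highest. Tubb6, a beta tubulin known to rise in regenerating and dystrophic muscle, had 23.4, 24.3 and 19.6 CPM in WT and 22.1, 29.5 and 24.1 CPM in M92KO, a log2 fold change of 0.17 ± 0.126. Only M92KO replicate 2 was above the WT range, and the log2 fold change was 0.04 without it, 0.08 without WT replicate 3 and 0.26 without M92KO replicate 1.

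**Figure D2:**
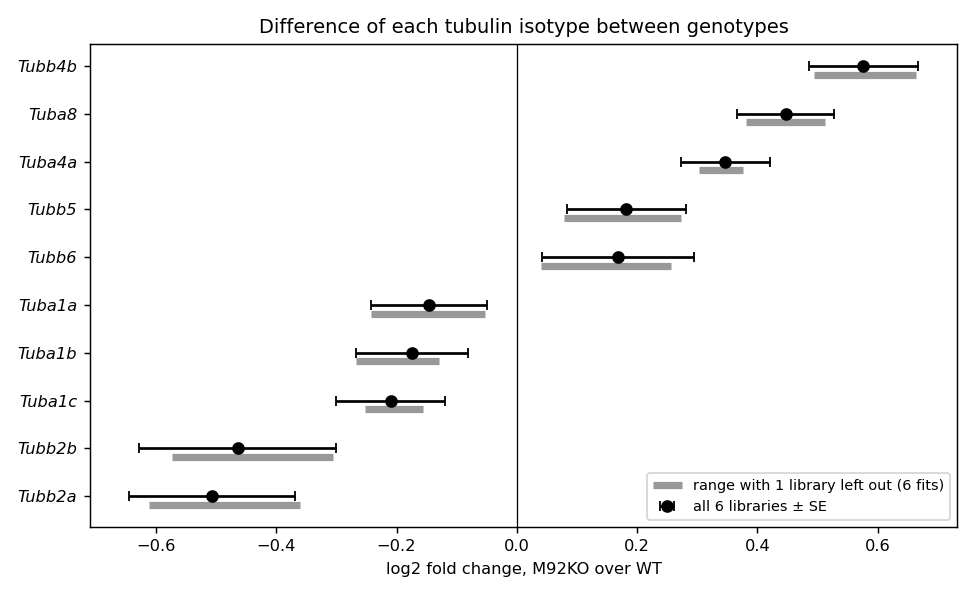
Log2 fold change of each isotype, M92KO over WT, from edgeR with all 6 libraries (points, bars ± SE) and its range when each library was left out in turn (grey, 6 fits). Tubb4b is highest at 0.58 and Tubb2a lowest at -0.51, and the sign of all 10 was the same in every one of these fits. For isotypes without overlap the sign could hardly change.

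Over the family, 3 isotypes were higher and 3 lower at an unadjusted edgeR p-value of 0.05, the threshold the study set for differential expression. Over all 15788 genes, 5.47% were higher and 6.92% lower at that threshold. By overlap, the same 3 isotypes had every M92KO value above every WT value, as did 8.77% of all genes, and the same 3 had every M92KO value below, as did 9.58%. Because the isotypes were chosen from this contrast, nothing is read from these shares. The median log2 fold change of the 10 was 0.01, and 5 of the 10 log2 fold changes were positive. After Benjamini-Hochberg adjustment over all genes, 0 of 15788 genes passed 0.05 with edgeR, against 1955 genes at the unadjusted threshold. DESeq2's Wald test called 322 genes at an adjusted p-value of 0.05, and Tuba4a, Tuba8, Tubb2a and Tubb4b were among them. Without M92KO replicate 1, edgeR called 401 genes, and Tuba4a, Tuba8 and Tubb4b were among them. Nothing is read from these calls of the isotypes either.

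Promoter sequence is shown for the abundant isotypes with the highest level in each family, Tuba4a and Tubb4b, and for Tubb2a, the isotype with the lowest log2 fold change. Each stretch is the 125 bases upstream of the RefSeq start (build GRCm38.p6), all on the minus strand and outside the exons of GENCODE M21, at chr1:75219295-75219419, chr2:25224703-25224827 and chr13:34078009-34078133. Capitals mark matches on either strand to the GC box GGGCGG, the CCAAT box CCAAT, the TATA box TATAAA or the E-box CANNTG, and the marked matches do not overlap each other. The Tuba4a stretch lies inside the annotated gene, since 1 transcript starts further upstream, and is intronic in it.
Tuba4a: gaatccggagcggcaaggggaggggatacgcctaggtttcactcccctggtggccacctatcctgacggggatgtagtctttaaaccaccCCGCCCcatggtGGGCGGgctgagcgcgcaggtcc
Tubb4b: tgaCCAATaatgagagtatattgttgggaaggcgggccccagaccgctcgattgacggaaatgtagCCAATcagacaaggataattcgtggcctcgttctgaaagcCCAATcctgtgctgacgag
Tubb2a: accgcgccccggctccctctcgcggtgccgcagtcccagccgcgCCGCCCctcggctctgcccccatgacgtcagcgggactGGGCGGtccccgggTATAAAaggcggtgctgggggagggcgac
The Tubb4b stretch held 3 CCAAT boxes, and 5 were found in its 250 upstream bases. Of 32851 promoters of that length, 33.9% held at least 1 CCAAT box and 0.213% held 5 or more. Tubb2a was the only one of the 8 isotypes with an entry that had a TATA box, 29 bases before the start, and 12.4% of all promoters had one. A GC box occurred in Tuba1a, Tuba1b, Tuba4a, Tubb2a and Tubb4b and in 32.7% of all promoters. An E-box occurred in all 8 and in 66.2% of promoters, the MCAT element CATTCC in Tubb5 and in 12.6% of promoters, and the MEF2 and CArG motifs of muscle genes in 0 of the 8, against 2.92% and 1.47% of promoters. The 3 isotypes that were higher in M92KO shared no motif of this set beyond the E-box. These matches are letters in a window and say nothing of factor binding.

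Summed per kb of transcript, both chains were more abundant in M92KO muscle. The alpha pool of 5 isotypes was 296, 309 and 306 CPM per kb in WT and 357, 395 and 348 CPM per kb in M92KO, 20.6% more. The beta pool was 154, 155 and 159 CPM per kb in WT and 201, 228 and 187 CPM per kb in M92KO, 31.4% more. Neither pool overlapped between genotypes. Tuba4a, Tuba8 and Tubb4b together did not overlap either, at 338 ± 10.2 CPM per kb in WT and 459 ± 37.6 CPM per kb in M92KO. The other 7 isotypes together overlapped, at 122 ± 3.07 CPM per kb in WT and 113 ± 12.6 CPM per kb in M92KO. All 10 genes took 0.103% of the counts of a WT library and 0.126% of an M92KO library on average.

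The composition of each pool differed as well. Tubb4b made up 66.7%, 66.4% and 66.5% of the beta pool in WT and 78.3%, 75.6% and 72.5% in M92KO. Tubb2a made up 10.1%, 10.3% and 13.1% in WT and 5.37%, 5.32% and 7.51% in M92KO. Neither share overlapped, and the ratio of Tubb4b to Tubb2a counts was 5.99 ± 0.829 in WT and 12.7 ± 2.72 in M92KO (SD, n = 3). In the alpha pool the shares were closer. Tuba4a made up 53.2% ± 1.33 in WT and 56.2% ± 0.852 in M92KO, and Tuba8 23.8% ± 0.243 and 26.8% ± 1.03. Tuba1a, Tuba1b and Tuba1c each made up a smaller share in every M92KO library than in any WT library. Shares in a pool depend on each other, so a share can fall because another isotype rises. In CPM, Tuba1a and Tuba1b themselves overlapped between genotypes. The shares restate the values above and add no test. The alpha to beta ratio per kb of transcript was 1.95 ± 0.0439 in WT and 1.79 ± 0.0623 in M92KO, without overlap. Per kb of coding sequence the ratios overlapped (2.71 ± 0.0757 and 2.58 ± 0.0868), so that separation depends on the length used.

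**Figure D3:**
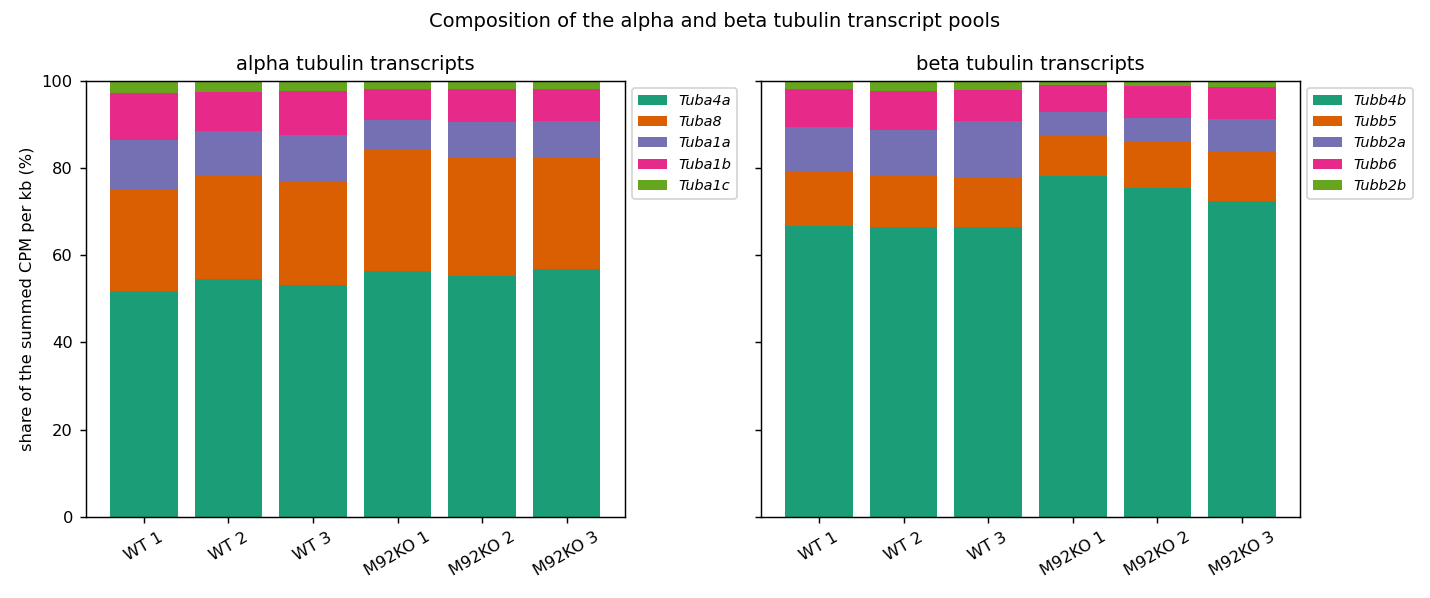
Share of each isotype in the alpha pool (left) and the beta pool (right) of each library, as a percentage of the summed CPM per kb. Tubb4b takes 66.4% to 66.7% of the beta pool in WT and 72.5% to 78.3% in M92KO, and Tuba4a takes more than 50% of the alpha pool in all 6 libraries.

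Several of these transcripts share sequence, and how reads that fit more than 1 gene were counted is not given in the sources used here. In GENCODE M21, 52.0% of the 50-base stretches of the main Tuba1a transcript, 64.6% of Tuba1b and 59.8% of Tuba1c also occurred in another of the 10 tubulins. Counts of the 3 Tuba1 genes are thus uncertain as single values. Summed, they had 132, 120 and 126 CPM in WT and 102, 125 and 109 CPM in M92KO, which overlapped, with a log2 fold change of -0.17 ± 0.088. Tubb2a shared 45.6% with Tubb2b. Their sum was 31.7, 33.2 and 41.0 CPM in WT and 21.3, 25.1 and 28.5 CPM in M92KO, without overlap, with a log2 fold change of -0.50 ± 0.131. Tubb4b shared 0% with the other 9 tubulins but 43.6% with the pseudogene Tubb4b-ps1, whose row is not in the counts used here. Of the 10, Tubb5 (0.12%) and Tubb6 (0%) had almost no 50-base stretch in any other gene. Tuba4a lies against Stk16 on the opposite strand, with 47.7% of its stretches shared, and whether strand was used in counting is not given. Stk16 was counted at 21.3 to 25.5 CPM in the 6 libraries, with a log2 fold change of 0.02 ± 0.095, far below Tuba4a. These values cannot tell whether reads of Tuba4a in the shared stretches went uncounted. Its CPM per kb, its share and the alpha pool are uncertain to that extent.

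The positions in GRCm38 (GENCODE M21) place the Tuba1 genes together on chromosome 15, Tuba1b at 98931425 to 98934565, Tuba1a at 98949837 to 98953703 and Tuba1c at 99029891 to 99038110, the last on the plus strand and the others on the minus strand. Tubb2a (34074274 to 34078007) and Tubb2b (34126748 to 34130466) are neighbours on the minus strand of chromosome 13. The 3 isotypes that were higher are dispersed, Tuba4a on chromosome 1 (75214228 to 75219865, minus), Tuba8 on chromosome 6 (121210696 to 121226854, plus) and Tubb4b on chromosome 2 (25222160 to 25224702, minus). Tubb5 is on chromosome 17 (35833921 to 35838306, minus) and Tubb6 on chromosome 18 (67390717 to 67402749, plus). Values are counts over whole genes, and the main transcript has 5 exons in Tuba8 and 4 in each of the other 9.

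The other alpha and beta tubulins had few counts, and 2 of 6, Tubb4a and Tubb3, passed the filter on low counts. Tubb4a, a beta tubulin of brain and myelinating cells, had 2.45, 2.18 and 2.07 CPM in WT and 1.01, 2.11 and 2.31 CPM in M92KO, a log2 fold change of -0.30 ± 0.291 (edgeR adjusted p = 0.728), or -0.01 without M92KO replicate 1. Tubb3, the neuronal beta tubulin, had 12 to 28 counts in each library, a log2 fold change of 0.12 ± 0.356 (adjusted p = 0.927) that lay between -0.06 and 0.43 with 1 library left out. Tubb1, the platelet beta tubulin, had 0 to 9 counts a library and Tuba3b 0 to 2, while Tuba3a and Tubal3 had 0 counts in all 6, which allows up to 3 counts, or 0.0629 to 0.0916 CPM, in each.

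Beyond the isotypes, 152 genes in 6 lists make, modify, bind or move on microtubules, and 140 of them were tested. At an unadjusted p-value of 0.05, 15 (10.7%) were higher and 6 (4.29%) lower in M92KO, beside the 5.47% and 6.92% of all genes. In 20 of the 140 (14.3%) every M92KO value was above every WT value and in 9 (6.43%) below, beside 8.77% and 9.58% of all genes. After adjustment over all genes 0 of the 140 passed with edgeR (smallest adjusted p = 0.179), and 3 (Mapt, Pfdn2 and Agbl1) passed with DESeq2. The median log2 fold change was 0.04, beside 0.00 over all genes. Without M92KO replicate 1, 23 (16.4%) were higher and 7 (5%) lower, beside 9.62% and 8.96% of all genes in that fit. In that fit 8 genes also passed the adjusted threshold, Mapt, Mapre2, Kif1b, Kif5b, Map4, Dync1li1, Agbl1 and Pfdn2. Without WT replicate 2 the counts were 8 (5.71%) higher and 1 (0.714%) lower, beside 3.32% and 4.33% of all genes, and without WT replicate 3 they were 6 (4.29%) and 3 (2.14%), beside 3.46% and 4.49%. Pfdn2, Cct3, Cct6a, Agbl1 and Mapt passed the unadjusted threshold in all 6 fits with 1 library left out, and every other microtubule gene named below as higher or lower lost that call in at least 1 of them.

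Of 23 tubulin folding genes, all tested, 4 were higher at the unadjusted threshold, 0 lower, and 19 did not pass. Among all genes, 5.47% were higher and 6.92% lower. Tubulin chains are folded by prefoldin and the CCT chaperonin and joined into dimers by cofactors. The median log2 fold change was 0.09, and 0.06 with trends in GC content and length removed. In 10 of the 23 every M92KO value was above every WT value and in 0 below, beside 8.77% and 9.58% of all genes. The list was written with earlier results of these data known. Pfdn2, a prefoldin subunit, had 45.1, 46.3 and 44.5 CPM in WT and 60.3, 56.3 and 54.1 CPM in M92KO, a log2 fold change of 0.33 ± 0.067 (edgeR adjusted p = 0.179). The chaperonin subunits Cct3 (0.23 ± 0.070, adjusted p = 0.262), Cct6a (0.22 ± 0.062, adjusted p = 0.245) and Cct8 (0.17 ± 0.070, adjusted p = 0.388) passed the unadjusted threshold in the same direction. The most abundant gene of the list, the chaperonin subunit Tcp1, had a log2 fold change of 0.12 ± 0.066 (adjusted p = 0.525) and did not pass, except without M92KO replicate 1 (0.14, unadjusted threshold). Without M92KO replicate 1, 6 of the 23 were higher and 0 lower, beside 9.62% and 8.96% of all genes in that fit.

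Of the 29 enzymes of tubulin modification, 23 were tested, with a median log2 fold change of 0.04. At the unadjusted threshold 3 were higher and 1 was lower, beside 5.47% and 6.92% of all genes. Agbl1, a carboxypeptidase that trims glutamate chains, had 17.1, 17.9 and 14.2 CPM in WT and 4.26, 11 and 8.92 CPM in M92KO. All M92KO libraries were below all WT libraries, M92KO replicate 1 lowest, and the log2 fold change was -1.03 ± 0.283 (edgeR adjusted p = 0.230), or -0.72 without that library. Vash2, which removes the final tyrosine of alpha tubulin, was low, with 1.27 to 2.12 CPM in WT and 1.99 to 4.63 CPM in M92KO, and the groups overlapped (log2 fold change 0.91 ± 0.326, adjusted p = 0.328). The glutamate ligases Ttll11 (0.38 ± 0.164, adjusted p = 0.396) and Ttll7 (0.22 ± 0.084, adjusted p = 0.357) also passed the unadjusted threshold. Sirt2, a tubulin deacetylase and, after Ttll7, the most abundant of the list, had a log2 fold change of 0.11 ± 0.067 (adjusted p = 0.573).

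Among 39 microtubule-binding and severing proteins, all tested, 5 were higher and 3 lower, beside 5.47% and 6.92% of all genes. Their median log2 fold change was 0.01. Mapt, which encodes tau, had 78.9, 69.9 and 70.2 CPM in WT and 88.3, 110.6 and 111.0 CPM in M92KO, a log2 fold change of 0.50 ± 0.102 (edgeR adjusted p = 0.179). M92KO replicate 1 was the lowest of its group and still above all WT libraries. Map1a (0.49 ± 0.157, adjusted p = 0.281), the end-binding protein gene Mapre2 (0.47 ± 0.154, adjusted p = 0.285) and Stmn2, which sequesters tubulin dimers (0.52 ± 0.184, adjusted p = 0.324), were higher at the unadjusted threshold. For Mapre2, M92KO replicate 1 (56.5 CPM) lay next to the WT libraries (53.7 to 55.4 CPM), below the other M92KO libraries (92.7 and 78.9 CPM). The most abundant genes of the list, Map4 (0.19 ± 0.090, adjusted p = 0.451) and the plus-end protein gene Clip1 (0.04 ± 0.101, adjusted p = 0.910), did not pass. Without M92KO replicate 1 both passed the unadjusted threshold, at 0.28 and 0.15, and Map4 also the adjusted one (adjusted p = 0.0341).

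With all libraries included, the median differences of motor and nucleation genes were small. Of 39 kinesin and dynein genes 37 were tested, with a median log2 fold change of 0.02. Kif5c, a kinesin heavy chain at 0.817 to 1.01 CPM in WT, was higher (0.57 ± 0.231, edgeR adjusted p = 0.380) and Ndel1, a dynein regulator, lower (-0.17 ± 0.067, adjusted p = 0.361) at the unadjusted threshold. Kif1b, the most abundant motor, had 774, 748 and 713 CPM in WT and 649, 1065 and 983 CPM in M92KO. It was the M92KO replicate 1 value that fell below the WT range, and the log2 fold change of 0.27 ± 0.163 (adjusted p = 0.560) was 0.46 ± 0.061 without that library. Kif1c had a log2 fold change of 0.00 ± 0.078 (adjusted p = 0.989). In the fit without M92KO replicate 1, 6 motor genes were higher and 2 lower, beside 9.62% and 8.96% of all genes. In that fit Kif1b (adjusted p = 0.0132), Kif5b (0.32 ± 0.052, adjusted p = 0.0282) and Dync1li1 (0.30 ± 0.053, adjusted p = 0.0367) also passed the adjusted threshold. Of 16 genes for gamma, delta and epsilon tubulin and nucleation, Tubg1, gamma tubulin itself (0.17 ± 0.074, adjusted p = 0.396), and Pcnt, a centrosome scaffold (0.16 ± 0.065, adjusted p = 0.374), were higher and Akap9 (-0.18 ± 0.073, adjusted p = 0.379) lower. Pde4dip, the most abundant of these, had a log2 fold change of 0.10 ± 0.087 (adjusted p = 0.695), which passed the unadjusted threshold only without M92KO replicate 1 (0.16). The median of the 16 was 0.05.

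**Figure D4:**
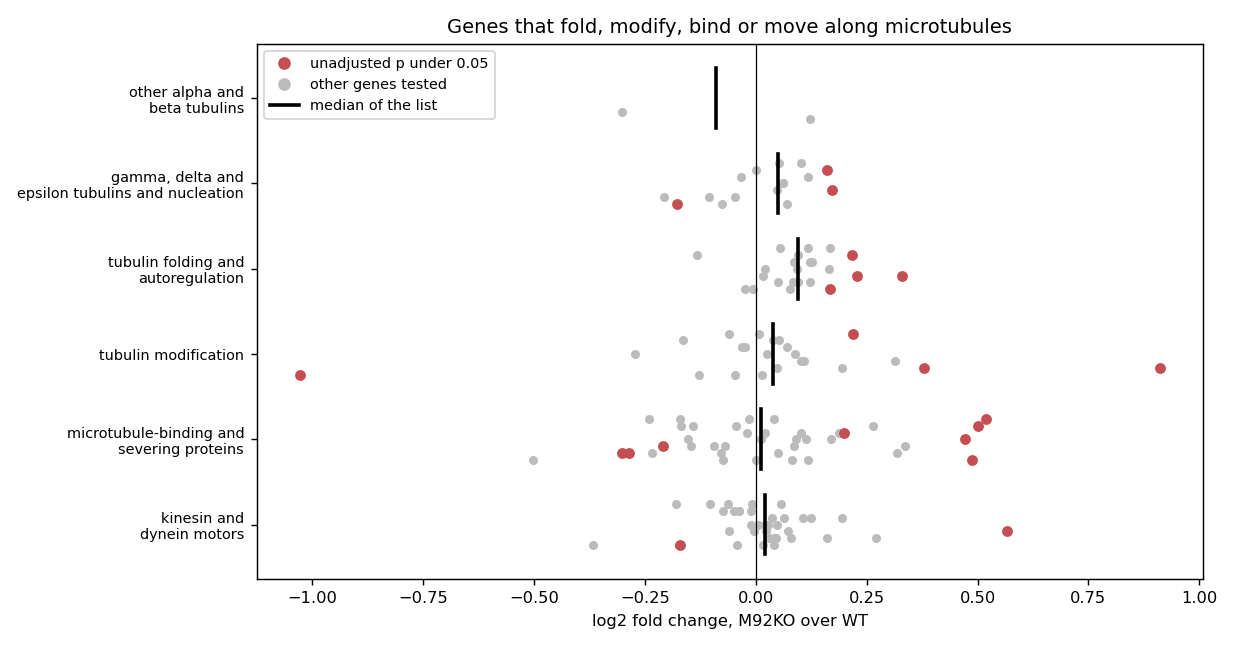
Log2 fold change, M92KO over WT, of the 140 tested genes that fold, modify, bind or move along microtubules, 1 row per list. Red points passed an unadjusted edgeR p-value of 0.05 (15 higher, 6 lower), grey points did not, and black lines are list medians, between -0.09 and 0.09.

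Markers of other cells in the muscle also differed, and because the libraries are bulk tissue, fewer cells of a type and less RNA per cell cannot be told apart. All 10 fibroblast markers were detected in every library. They summed to between 1817 and 2476 CPM in WT and between 1263 and 1713 CPM in M92KO, without overlap. Of these 10, 3 were lower at the unadjusted threshold and 0 higher (Dcn -0.33 ± 0.080, edgeR adjusted p = 0.188, and Col1a2 -0.53 ± 0.171, adjusted p = 0.283, among them). Among all genes, 6.92% were lower and 5.47% higher. The log2 fold change was positive for 2 of the 10 fibroblast markers. Without M92KO replicate 1, 2 of them were lower and 1 higher, and their median log2 fold change of -0.36 was -0.17. Col3a1, the most abundant, had a log2 fold change of -0.38 ± 0.184 (adjusted p = 0.453). All 10 Schwann cell markers were detected too, at a sum of 142 to 194 CPM in WT and 140 to 148 CPM in M92KO, which overlapped, with 5 lower at the unadjusted threshold, Mal (-0.55 ± 0.165, adjusted p = 0.258) and Mbp (-0.39 ± 0.133, adjusted p = 0.313) among them. Pmp22, the most abundant, was also lower (-0.23 ± 0.087, adjusted p = 0.347). With M92KO replicate 1 left out, 2 of these 10 were lower, beside 8.96% of all genes in that fit. The fibroblast and Schwann cell markers that passed with all libraries lie in the same direction as Tubb2a, Tubb2b and Tuba1c. Their part in the tubulin values was not tested.

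The remaining marker lists overlapped between genotypes in their sums. Calls here are at the unadjusted threshold, which 5.47% of all genes passed as higher and 6.92% as lower. With 1 library left out, Tie1, Pax7 and Cdh15 passed it in all 6 fits, and Ptprc, Rgs5, Cspg4 and Myh2 in 3 of 6. Cspg4 and Myh2 overlapped between genotypes. Endothelial markers summed to 1085 to 1182 CPM in WT and 974 to 1168 CPM in M92KO, with 1 of 10 lower (Tie1, -0.23 ± 0.070, edgeR adjusted p = 0.258). Macrophage and leukocyte markers summed to 126 to 138 CPM and 95.4 to 138 CPM, with 1 of 10 lower (Ptprc, -0.53 ± 0.177, adjusted p = 0.304). Pericyte and smooth muscle markers summed to 1165 to 1230 CPM and 1044 to 1169 CPM, with Rgs5 lower (-0.19 ± 0.075, adjusted p = 0.361) and Cspg4 higher (0.43 ± 0.146, adjusted p = 0.312). Of the 8 satellite cell and regeneration markers tested, Pax7 (0.56 ± 0.156, adjusted p = 0.234) and Cdh15 (0.32 ± 0.087, adjusted p = 0.220) were higher. Myh8, the most abundant, was not (0.00 ± 0.072, adjusted p = 0.986). Of 12 muscle fibre markers 1 was higher, the type IIa myosin Myh2 (0.70 ± 0.242, adjusted p = 0.314), and Acta1 was at 0.01 ± 0.100 (adjusted p = 0.986). Proliferation markers summed to 10.6 to 14.7 CPM and 10.7 to 13.1 CPM with 0 of 9 past the threshold, and fat cell markers to 315 to 364 CPM and 313 to 395 CPM with 0 of 7. The fat cell sum is mostly Fabp4, and the 7 log2 fold changes were all positive, between 0.04 and 0.97, with a median of 0.62, or 0.79 without M92KO replicate 1. The most abundant genes of the endothelial, macrophage, proliferation and fat cell lists, Kdr, Lyz2, Tpx2 and Fabp4, had log2 fold changes of 0.00 ± 0.106, -0.05 ± 0.124, 0.00 ± 0.173 and 0.04 ± 0.100 (adjusted p = 0.994, 0.902, 0.997 and 0.902).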

How the data were processed

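RNA of gastrocnemius muscle from 3 WT and 3 M92KO mice was sequenced as 1 library per mouse, from a SMARTer mRNA kit. The authors deposited unnormalized counts of reads on 34714 gene symbols, and the submitters' processing notes name GRCm38 and mm10. The aligner, counting program, annotation, strandedness and treatment of reads that fit several genes are not given in the sources used here. Groups came from the sample titles.

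Counts were filtered with edgeR's filterByExpr (minimum count 10, minimum total 15), normalized with TMM and compared between genotypes with edgeR's quasi-likelihood test, with no covariate, and p-values were adjusted over all 15788 genes with the Benjamini-Hochberg method (R 4.3.3, edgeR 4.0.16, DESeq2 1.42.0, limma 3.58.1, Python 3.11.15). An exact permutation test of 3 against 3 libraries cannot go below a two-sided p of 0.1 and was not used. On simulated counts with this design edgeR found 188 of 200 changed genes and called 16 others among 15788 genes. DESeq2 found 190 and called 40 others. Recovery of differences as small as those of the isotypes and of most microtubule genes was not tested. The threshold that the study set for differential expression, an unadjusted p of 0.05, was kept, and adjusted values are given beside it. Nothing in the labels says that the mice were littermates. The edgeR p-values set the difference between groups against the spread between libraries, moderated over all genes. They cannot tell the genotype apart from other differences between the groups of mice, such as the line they came from.

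The members and the gene lists were chosen with earlier results of these data known. Named were every member, in each list of microtubule genes up to 4 genes with the smallest p under the unadjusted threshold and the 2 most abundant in WT, and in each marker list the most abundant gene and up to 2 with the smallest p. Stk16, Mir92b, Tubb4b-ps1, Kif5b and Dync1li1 were named outside this rule. Positions, transcripts and 3′-UTRs came from GENCODE M21 (GRCm38) and miRNA and promoter sequences from RefSeq (GRCm38.p6), in which 8 of the 10 isotypes had a promoter entry. Alternatives were DESeq2 size factors, DESeq2's Wald test, no filter, quantile normalization with log2 and limma, a block for the replicate number, leaving out 1 library at a time, summed counts of isotypes that share sequence and, chosen after seeing the data, offsets that take out how counts in a library follow GC content and length (lowess span 0.3, values for 92.2% of genes) and coding length in place of transcript length.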

Additional observations from a re-analysis of the deposited data

How the results depend on the processing

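The sign of each of the 10 isotypes was the same in all 125 alternative values of its log2 fold change, and all 125 moved by less than 1 SD between replicates. Among the 125, the value of summed isotypes was entered once for each isotype in the sum. Leaving out 1 of 3 libraries shifts a group mean by only part of its spread, so those fits could hardly have moved further. Nor could they readily change the sign of an isotype without overlap, and little is read from this count. Calls at the unadjusted threshold did change. They describe the fits and are no test of the isotypes, which were chosen from this contrast. Tuba4a, Tuba8, Tubb4b and Tubb2a passed in every fit in which they were fitted singly. Tubb2b did not pass without WT replicate 2, without WT replicate 3 or with quantile normalization and limma, and Tuba1c did not pass with DESeq2's test, without the filter, with quantile normalization, with the block, or without WT replicate 1, WT replicate 2, M92KO replicate 1 or M92KO replicate 3. Without M92KO replicate 2, Tuba1a and Tuba1b passed, and without M92KO replicate 1, Tubb5 passed.

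With 1 library left out, the median of the 10 lay between -0.10 and 0.10, the log2 ratio of the alpha pool between 0.21 and 0.31 and that of the beta pool between 0.31 and 0.46. Of the microtubule genes, 15 were higher and 6 lower, and with 1 library left out 6 to 23 were higher and 1 to 7 lower. Quantile normalization with limma gave 7 (4.76% of 147) and 1 (0.680%), beside 3.58% and 3.56% of all genes. Over all genes, the 1955 below the unadjusted threshold became 1222 (without WT replicate 2) to 2984 (without M92KO replicate 1), and the adjusted calls, 0 with edgeR, became 322 with DESeq2, 6 without the filter and 51 with limma. The cause of these changes was not tested.

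Same-numbered libraries did not deviate together (correlations of 0.08, 0.04 and 0.02). These values give no sign that the numbers pair mice, but with 3 libraries in each group they cannot exclude it. With the replicate block, 8 microtubule genes were higher (5.71%) and 3 lower (2.14%), beside 4.35% and 6.37% of all genes, and 1691 genes passed the unadjusted threshold and 2 the adjusted one. Depth limits Tubb1 and Tuba3b, at or under 9 counts a library.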
